A study of Mus musculus with 12 samples.

Results

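A set of 40 genes of macrophages, of the complement system and of antigen presentation was followed in the gastrocnemius muscle of mice with and without Smad4, before and after the muscle had lost its nerve supply. The genes were picked by name for their known roles. The rule uses no measured level, although earlier results of these data were known when the list was made. They were found through the gene names in the scanner files among 27597 genes or gene names on the array. Each gene was read from its brightest probe. A level is given throughout as log2 of the Cy3 intensity relative to the 75th percentile of its own array, so that 0 means as bright as that percentile, and a difference of 1 on this scale is a doubling. Levels of different genes come from different probes and are not compared with each other. A probe counted as detected where the scanner software marked it as well above background. Of the 40 genes, 36 were detected on all 3 arrays of at least 1 group and were tested, and 33 of these were detected on every array of the study. Itgax and Cd53 passed this filter only through the denervated groups, so a difference in them was built into the filter, and Itgam was missed on 1 KO control array. The other 4 genes were not tested. C5ar1, a receptor for a complement fragment, was detected on no array, and the complement receptor C3ar1 on 1 WT denervated array. The scavenger receptor Msr1 and the fractalkine receptor Cx3cr1 were each detected on 1 WT denervated and 2 KO denervated arrays and on no control array.

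The mice were adult males of CD1, an outbred stock. WT control was innervated muscle of wild type mice and WT denervated was muscle of wild type mice 14 days after denervation. KO control and KO denervated were the same conditions in Smad4 knockout mice. Each group had 3 arrays, each hybridised with total RNA of whole muscle, and the study text describes independent experiments with different animals. The labels name neither the promoter nor the Cre line behind the deletion, nor the cells it reaches, nor how the nerve was interrupted, and they do not say whether the innervated muscle was the other leg of the same mouse. The study compared denervated with innervated muscle in each genotype and the genotypes with each other. Smad4 is the signal transducer shared by the TGF-beta and BMP branches of its receptor family.

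Muscle holds resident macrophages between its fibres, and blood monocytes that carry the chemokine receptor Ccr2 can enter it and become macrophages. Macrophages engulf debris through scavenger, Fc and complement receptors and break it down in lysosomes. The complement proteins C1q and C3 mark debris and immune complexes for uptake, and C1q is made largely by macrophages themselves. Peptides from engulfed protein are cut by cathepsins such as Ctss and shown to helper T cells on MHC class II molecules, which are built from the H2-A and H2-E chains with the invariant chain Cd74. In muscle, macrophages are known for clearing damaged fibres and supporting their regrowth. Whole muscle was profiled here, so fewer cells of a type and less RNA per cell cannot be told apart.

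Promoters of 30 of the 40 genes could be matched in RefSeq (build GRCm38.p6), each from 250 bases before to 50 bases after the gene's start. C1qa, Ccl2, Ccl7, Cd14, Cd74, Csf1r, Emr1, H2-Ab1, Msr1 and Tyrobp had no entry. A pair of sequence motifs of immune genes was searched on both strands. The Y box CTGATTGG (CCAATCAG on the other strand), the NF-Y element of MHC class II promoters, was in 3 of the 30 promoters against 4.7% of the 27025 genes with a promoter. The core GAGGAAGT (ACTTCCTC on the other strand), bound by the myeloid factor PU.1, was in 4 of 30 against 3.69%. The Y box was found in H2-Aa, H2-Eb1 and Spp1, and the PU.1 core in C1qc, Cd53, Ctss and Spp1. The motifs do not overlap, and a match describes letters only. The 250 bases before the start of 4 genes are given 5′ to 3′ on the gene's strand, with the motif in capitals: Spp1 because it holds both, H2-Aa and H2-Eb1 for the Y box of class II genes, and C1qc for a PU.1 core in a complement gene. In Spp1 (chr5:104434861-104435110, plus strand) the PU.1 core begins 113 bases and the Y box 49 bases before the start. In C1qc (chr4:136892915-136893164, minus strand) the core lies 195 bases before the start as ACTTCCTC. In H2-Aa (chr17:34287824-34288073, minus strand) and H2-Eb1 (chr17:34305617-34305866, plus strand) the Y box begins 51 and 62 bases before it.
Spp1: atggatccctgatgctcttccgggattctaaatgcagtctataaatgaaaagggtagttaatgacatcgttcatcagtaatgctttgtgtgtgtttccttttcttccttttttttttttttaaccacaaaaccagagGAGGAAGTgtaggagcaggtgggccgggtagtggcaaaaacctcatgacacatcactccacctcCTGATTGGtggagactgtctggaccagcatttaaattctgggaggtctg
C1qc: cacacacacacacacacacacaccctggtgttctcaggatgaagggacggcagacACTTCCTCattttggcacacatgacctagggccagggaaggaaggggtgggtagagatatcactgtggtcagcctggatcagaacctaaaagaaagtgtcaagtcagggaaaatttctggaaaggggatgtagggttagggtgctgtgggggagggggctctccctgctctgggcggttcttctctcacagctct
H2-Aa: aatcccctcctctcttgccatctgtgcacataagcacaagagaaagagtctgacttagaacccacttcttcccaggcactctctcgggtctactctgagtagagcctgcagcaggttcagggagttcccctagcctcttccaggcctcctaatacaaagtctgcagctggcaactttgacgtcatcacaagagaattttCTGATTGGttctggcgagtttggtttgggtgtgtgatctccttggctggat
H2-Eb1: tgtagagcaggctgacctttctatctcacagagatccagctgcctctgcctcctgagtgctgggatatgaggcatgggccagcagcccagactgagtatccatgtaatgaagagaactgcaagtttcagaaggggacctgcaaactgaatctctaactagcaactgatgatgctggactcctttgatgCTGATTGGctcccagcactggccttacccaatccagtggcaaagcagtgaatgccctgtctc

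Between 50.2% and 56.4% of the probes were detected per array, and the 75th percentile lay between 226 and 383 intensity units, against at most 16.5 for the dimmest detected probe. No spot was saturated. Smad4, read by the brighter of 2 probes (mm8 chr18:73764420-73764479), was 3.69, 3.52 and 3.94 on the WT control arrays, 3.11, 3.45 and 3.23 on the WT denervated, 2.37, 2.30 and 2.12 on the KO control and 1.68, 1.99 and 1.82 on the KO denervated arrays. Every array labelled KO was below every array labelled WT, by 1.45 ± 0.16 (log2, SE) in innervated muscle (limma, adjusted p = 0.0218). All 15 skeletal muscle fibre markers were detected on all 12 arrays. The arrays lay on 4 slides scanned on 2 days. Slide 1 held WT control 1, WT denervated 1 and KO denervated 1, slide 2 WT control 2 and KO control 2, slide 3 WT control 3, KO control 3 and KO denervated 3, and slide 4, scanned on the other day, WT denervated 2 and 3, KO control 1 and KO denervated 2.

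After denervation the genes were mostly higher, in both genotypes. In WT muscle 10 of the 36 tested genes were higher and 0 lower by the adjusted test, while 39.2% of all 15234 genes tested passed, 19.2% higher and 20.0% lower. In KO muscle 19 of 36 were higher and 0 lower, against 46.8% of all genes, 23.4% higher and 23.5% lower. The difference was above 0 for 35 of 36 genes in WT, where Ccl2 was the exception, and for 36 of 36 in KO. Its median over the genes was 0.55 in WT and 0.89 in KO, against 0.00 for all genes in each. These counts include Itgax in both genotypes, which the filter favoured. Among the 33 genes detected on every array, 9 were higher in WT and 17 in KO, with medians of 0.55 and 0.84. The groups did not overlap, with every denervated array above every innervated one, for 17 genes in WT and 20 in KO, against 26.7% and 28.1% of all genes. The reverse, every denervated array below, held for 0 genes in each, against 26.2% and 28.4%. Cd68, Aif1, Fcgr1, Ccl8, Lgals3, Gpnmb and Trem2 rose in both genotypes. In an alternative, the local background was subtracted by the normexp method and an offset of 50 intensity units was added. Such an offset by itself shrinks the log2 differences of dim probes, so its part and that of the subtraction cannot be told apart. With normexp, the differences of all 10 genes called in WT and all 19 called in KO were smaller. They were smaller by over 1.5 times for 6 and 10 of them, and 6 and 10 still passed. With normexp Gpnmb, for example, differed by 1.33 in WT and 2.01 in KO, Trem2 by 1.20 and 1.26, Ccl8 by 1.34 and 1.84, and Cd68 by 1.04 and 0.62. Ccr2 and Spp1 passed the test in WT alone and 11 genes in KO alone, which is not a test of a difference between genotypes.

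**Figure D1:**
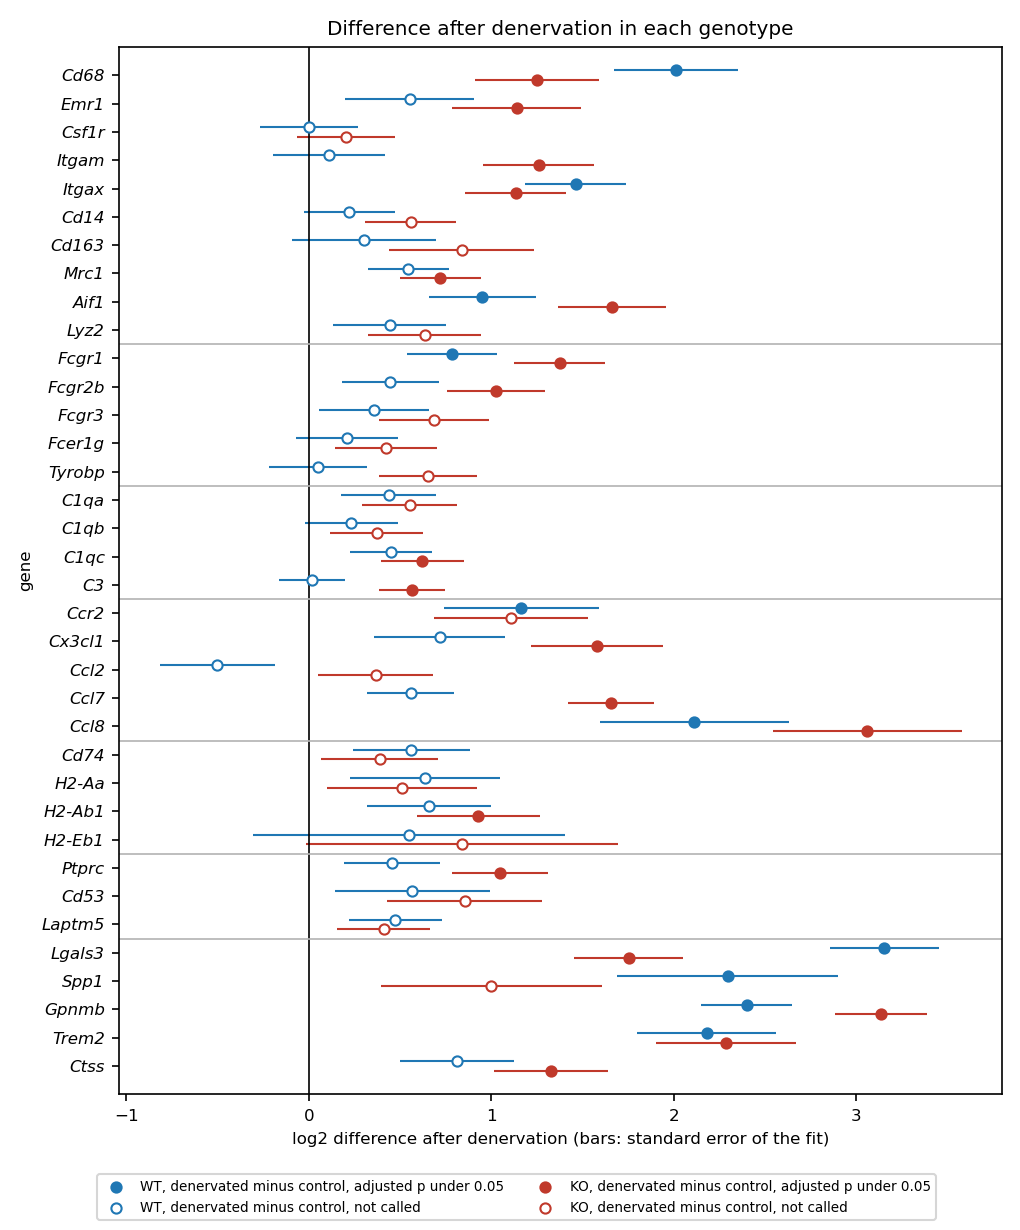
Difference between denervated and innervated muscle for each of the 36 tested genes, as log2 with its standard error (x axis), in WT and in KO muscle, with genes ordered by role (y axis). Of the genes plotted, 35 lie above 0 in WT and 36 in KO, and Lgals3 in WT (3.15) and Gpnmb in KO (3.14) lie farthest out.

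The innervated KO arrays differed from each other more than the arrays of any other group. The median of the 33 genes detected on every array, relative to each gene's WT control mean, was -0.10, 0.06 and 0.04 on the WT control arrays and 0.47, 0.53 and 0.60 on the WT denervated arrays. It was 0.53, 0.04 and -0.59 on KO control 1, 2 and 3 and 1.01, 1.02 and 0.59 on the KO denervated arrays. KO control 1 was thus as high as the WT denervated arrays and KO control 3 below every other array, while the median of all genes stayed between -0.06 and 0.05 on each array. KO control 1 was the highest of its group for 27 of the 36 genes and KO control 3 the lowest for 30. Without KO control 1 the number of genes higher in denervated KO muscle was 29 and their median difference 1.21, whereas without KO control 3 it was 14, as it was without KO denervated 2. Within slide 3, which held KO control 3, the median difference in KO was 1.20 with 35 of 36 genes above 0. Within slide 4, which held KO control 1, it was 0.53 with 30 above 0, and in WT it was 0.62 within slide 1 with 33 above 0. With the slide as a block in the model, 6 genes were higher in WT (median 0.39) and 19 in KO (median 0.90), and with the scan day as a block 7 in WT (median 0.30) and 22 in KO (median 0.89).

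**Figure D2:**
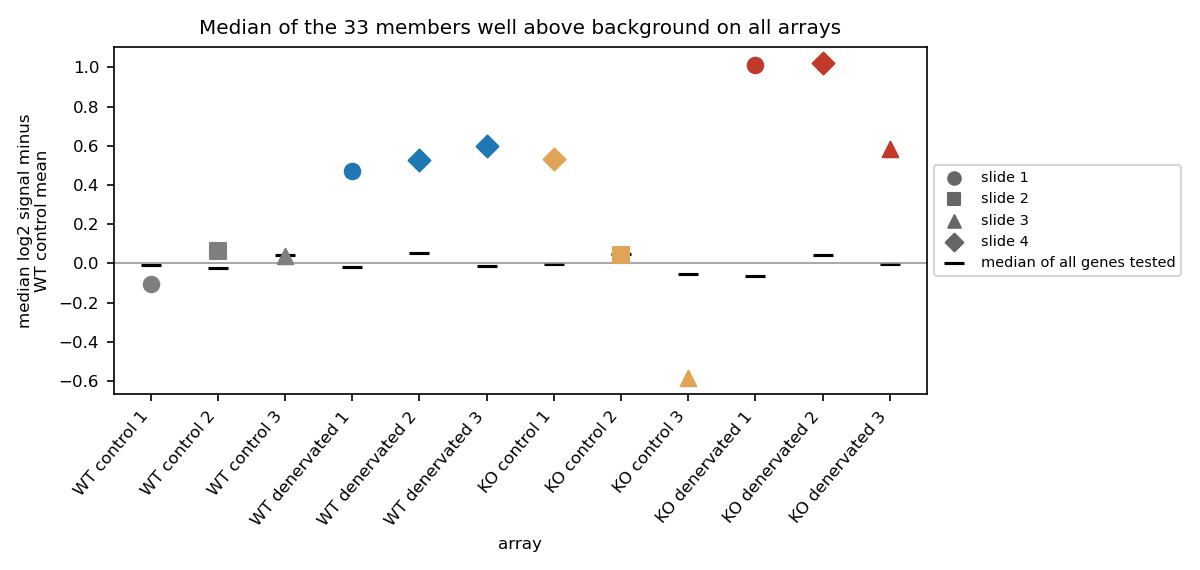
Median over the 33 genes detected on every array, as log2 relative to the WT control mean of each gene (y axis), for each of the 12 arrays (x axis), marked by slide, with the median of all genes on the same array. The KO control arrays run from -0.59 to 0.53 and the 3 KO denervated arrays from 0.59 to 1.02, while the median of all genes stays near 0.

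**Figure D3:**
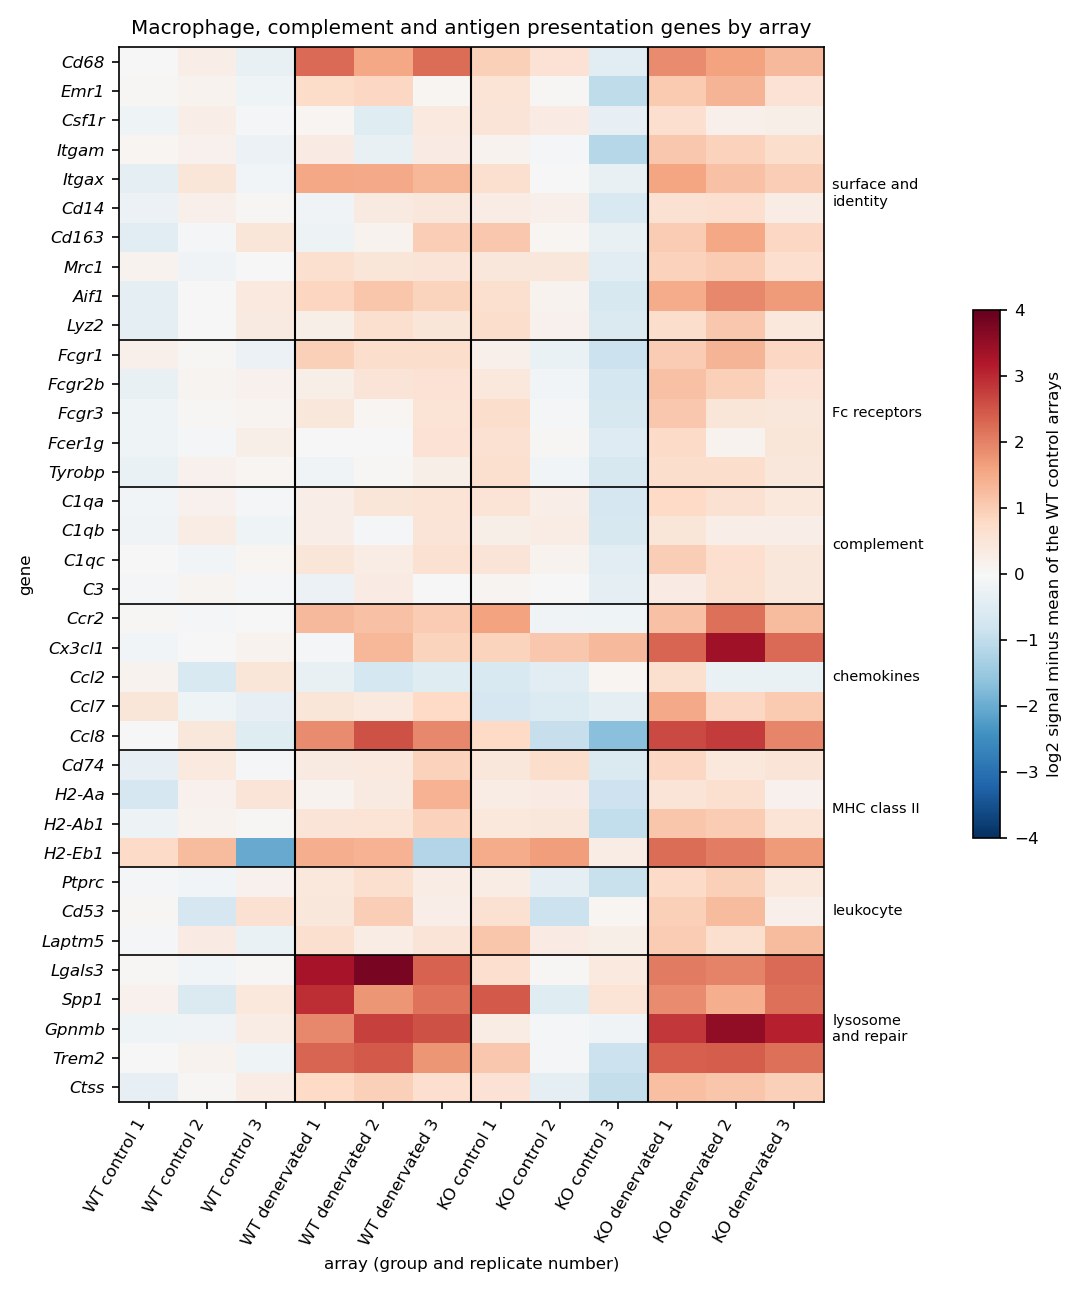
Level of each of the 36 tested genes (rows, grouped by role) on each of the 12 arrays (columns, grouped by condition), as log2 relative to the gene's WT control mean, on a colour scale from -4 to 4. The denervated columns are higher for most genes, Ccl2 differs from the other chemokines in WT, and the KO control columns differ among themselves.

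Among the lysosome and repair genes of phagocytes 4 of 5 rose in each genotype, where 19.2% (WT) and 23.4% (KO) of all genes were higher. The median difference of the 5 genes was 2.30 in WT and 1.75 in KO. Lgals3 encodes galectin-3, a sugar-binding lectin of activated macrophages (probe at mm8 chr14:46306600-46307416). It was 0.75, 0.59 and 0.73 on the WT control arrays and 3.99, 4.49 and 3.06 on the WT denervated arrays, and 1.35, 0.73 and 1.07 on the KO control and 2.77, 2.67 and 2.97 on the KO denervated arrays. The groups did not overlap in either genotype, and the KO denervated arrays were all below the WT denervated ones. Lgals3 rose by 3.15 ± 0.30 in WT (8.9-fold, limma, adjusted p = 1.58e-05) and by 1.75 ± 0.30 in KO (3.37-fold, adjusted p = 0.000703), where ± is the standard error of a difference between 3 and 3 arrays, as in all differences that follow. Gpnmb encodes a transmembrane glycoprotein of phagocyte lysosomes (chr6:48985973-48986032). Gpnmb was -2.65, -2.63 and -2.17 in WT control and -0.56, 0.26 and 0.05 in WT denervated muscle, and -2.20, -2.54 and -2.64 in KO control and 0.34, 1.05 and 0.63 in KO denervated muscle. Each denervated array was above each innervated array. The rise was 2.40 ± 0.25 in WT (5.27-fold, adjusted p = 3.24e-05) and 3.14 ± 0.25 in KO (8.79-fold, adjusted p = 4.23e-06).

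Trem2, a lipid-sensing receptor of macrophages (chr17:47817764-47817823), was -2.34, -2.21 and -2.52 in WT control, -0.03, 0.08 and -0.59 in WT denervated, -1.27, -2.42 and -3.22 in KO control and 0.02, 0.07 and -0.15 in KO denervated muscle. The groups did not overlap, although KO control 1 stood above the other innervated arrays. Trem2 rose by 2.18 ± 0.38 in WT (4.53-fold, adjusted p = 0.00113) and by 2.29 ± 0.38 in KO (4.88-fold, adjusted p = 0.000618), and its other probe gave 1.48 and 1.69. Spp1, the secreted phosphoprotein osteopontin (chr5:104681071-104681130), was -0.30, -1.05 and -0.04 in WT control and 2.50, 1.30 and 1.70 in WT denervated muscle. In KO it was 1.98, -0.94 and 0.10 in control and 1.41, 0.98 and 1.74 in denervated muscle, so the KO groups overlapped through KO control 1, the highest of the 6. Spp1 rose by 2.30 ± 0.61 in WT (4.91-fold, adjusted p = 0.0116; adjusted p = 0.0706 with the slide as a block). In KO the difference was 1.00 ± 0.61 (adjusted p = 0.197), and 1.80 without KO control 1 (adjusted p = 0.00762). Ctss, the cysteine protease cathepsin S (chr3:95641644-95641703), was 0.95, 1.32 and 1.56 in WT control, 2.06, 2.24 and 1.95 in WT denervated, 1.86, 0.92 and 0.32 in KO control and 2.47, 2.38 and 2.23 in KO denervated muscle. Its groups did not overlap in either genotype. Ctss rose by 1.33 ± 0.31 in KO (adjusted p = 0.00515), and its difference in WT was 0.81 ± 0.31 (adjusted p = 0.0608, or 0.0437 with the replicate number as a block within each genotype). That block, also used below, was chosen after the data were seen and pairs arrays by number, which the labels do not state.

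Of the 10 tested surface and identity genes of macrophages, 3 passed in WT and 6 in KO, with median differences of 0.49 and 0.99. Higher calls made up 19.2% of all genes in WT and 23.4% in KO. Both counts include Itgax, which the filter favoured. Besides it only Cd68 and Aif1 passed in WT, near the share of all genes. Cd68, a lysosomal membrane protein used to stain macrophages (chr11:69481007-69481066), was -2.05, -1.80 and -2.36 in WT control, 0.19, -0.53 and 0.17 in WT denervated, -1.11, -1.50 and -2.53 in KO control and -0.17, -0.46 and -0.76 in KO denervated muscle. Denervated and innervated arrays did not overlap in either genotype. Cd68 rose by 2.01 ± 0.34 in WT (4.03-fold, adjusted p = 0.000892) and by 1.25 ± 0.34 in KO (adjusted p = 0.0111; 0.62 with normexp, adjusted p = 0.0881). Itgax, the integrin chain CD11c (chr7:127941686-127941745), was -4.38, -3.51 and -4.13 in WT control, -2.46, -2.49 and -2.69 in WT denervated, -3.36, -4.01 and -4.32 in KO control and -2.42, -2.84 and -3.03 in KO denervated muscle. It was detected on only 1 of 3 arrays in each control group, and the denervated arrays were all higher. The differences were 1.46 in WT and 1.13 in KO, or 0.64 and 0.40 with normexp, and are given without a test because Itgax entered the fit only through the groups in which it was high. Aif1, the calcium-binding protein Iba1 (chr17:34779070-34779129), was -1.95, -1.53 and -1.18 in WT control, -0.69, -0.45 and -0.67 in WT denervated, -0.91, -1.41 and -2.19 in KO control and -0.06, 0.38 and 0.16 in KO denervated muscle. No arrays overlapped. Aif1 rose by 0.95 ± 0.29 in WT (adjusted p = 0.0253; 0.140 with the slide as a block and 0.0582 to 0.0942 without WT control 1, WT control 2 or WT denervated 2) and by 1.66 ± 0.29 in KO (adjusted p = 0.000912).

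Emr1, the adhesion receptor F4/80 (chr17:57168755-57168814), was -0.51, -0.42 and -0.70 in WT control, 0.20, 0.29 and -0.46 in WT denervated, -0.01, -0.50 and -1.55 in KO control and 0.52, 0.80 and 0.04 in KO denervated muscle. The WT groups overlapped and the KO groups did not. Emr1 rose by 1.14 ± 0.35 in KO (adjusted p = 0.0211), and the WT difference was 0.55 ± 0.35 (adjusted p = 0.241). The KO call was lost with normexp (adjusted p = 0.0551) and without KO denervated 1 (0.0532), KO denervated 2 (0.0781) or KO control 3 (0.0700), and without KO control 3 the difference was 0.71. Itgam, the integrin chain CD11b of monocytes, macrophages and neutrophils (chr7:127909109-127909168), was -3.35, -3.24 and -3.64 in WT control, -3.10, -3.72 and -3.09 in WT denervated, -3.28, -3.47 and -4.56 in KO control and -2.34, -2.48 and -2.71 in KO denervated muscle. The WT arrays overlapped, and every KO denervated array was above the KO control arrays. Itgam rose by 1.26 ± 0.31 in KO (adjusted p = 0.00593; 0.357 with normexp), with 0.11 ± 0.31 in WT (adjusted p = 0.801). Mrc1, the mannose receptor CD206 of tissue macrophages (chr2:14249431-14249491), was -0.37, -0.65 and -0.47 in WT control, 0.13, -0.01 and 0.03 in WT denervated, -0.06, -0.03 and -0.93 in KO control and 0.42, 0.53 and 0.19 in KO denervated muscle. The groups did not overlap in either genotype. Mrc1 rose by 0.72 ± 0.22 in KO (adjusted p = 0.0205), and its difference of 0.55 ± 0.22 in WT missed the threshold (adjusted p = 0.0724, or 0.0390 with the block within each genotype). Its KO call was lost with normexp (adjusted p = 0.0508) and without KO denervated 1 (0.0514), KO denervated 2 (0.0663) or KO control 3 (0.0522), and without KO control 3 the difference was 0.42. The remaining 4 did not pass. Csf1r, the receptor for the macrophage growth factors Csf1 and Il34, differed by 0.00 ± 0.27 in WT and 0.20 ± 0.27 in KO (adjusted p = 0.993 and 0.563), and its arrays overlapped in both. The differences of Cd14, Lyz2 and the haemoglobin scavenger receptor Cd163 were between 0.22 and 0.44 in WT and between 0.56 and 0.84 in KO.

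**Figure D4:**
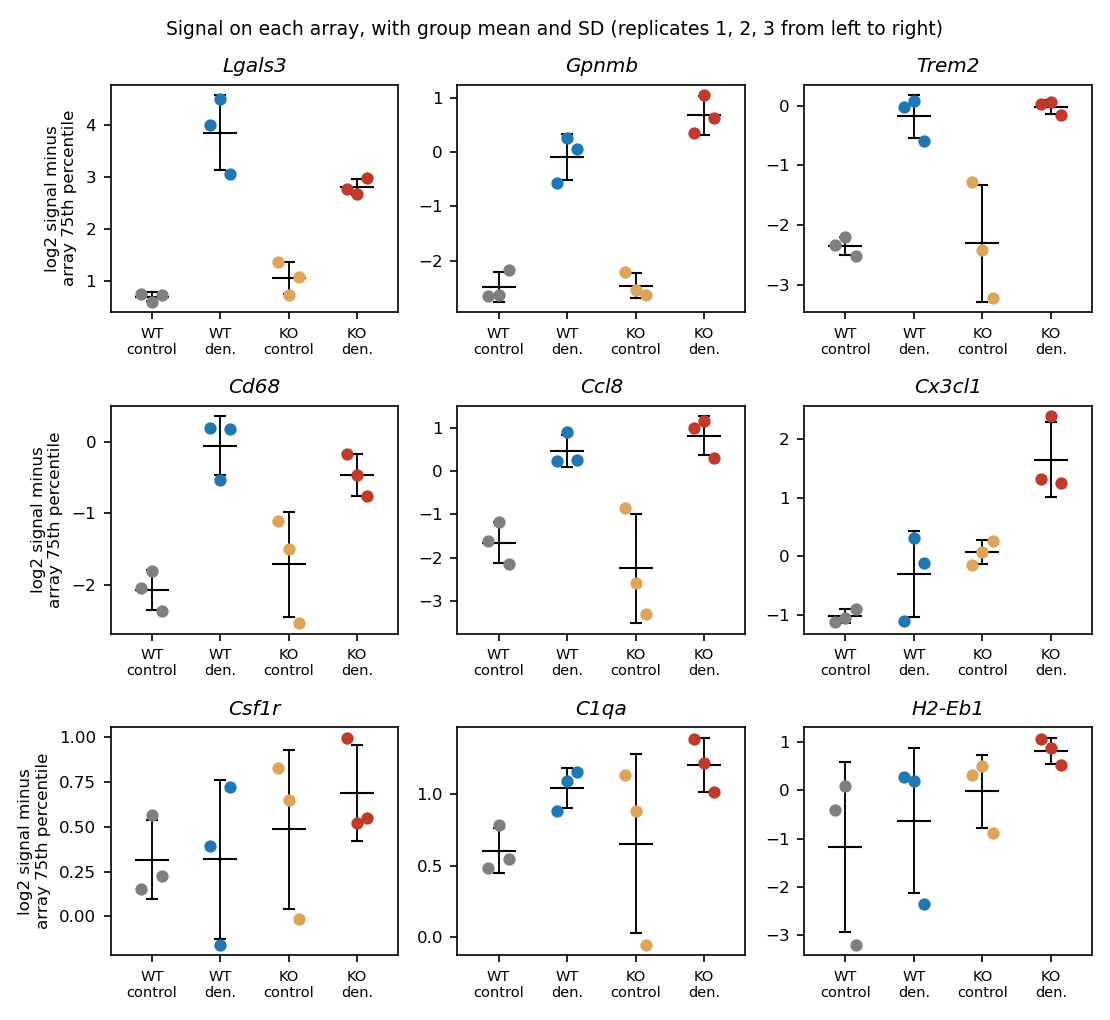
Level of 9 genes on each array, as log2 relative to the 75th percentile of the array (y axis), in the 4 groups (x axis); points are arrays, and bars give the mean and SD of 3 arrays. Lgals3, Gpnmb, Trem2, Cd68 and Ccl8 show no overlap between innervated and denervated arrays, Csf1r and C1qa show small differences, Cx3cl1 is higher in KO, and the third WT array of each condition is low for H2-Eb1.

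Of 5 Fc receptor genes, 1 passed in WT and 2 in KO (medians 0.36 and 0.69), where 19.2% and 23.4% of all genes were higher. The WT count is near that share. Fcgr1, the high-affinity IgG receptor (chr3:96368314-96368360), was -1.88, -2.02 and -2.31 in WT control, -1.11, -1.38 and -1.37 in WT denervated, -1.88, -2.34 and -2.93 in KO control and -1.06, -0.72 and -1.25 in KO denervated muscle. There was no overlap in either genotype. Fcgr1 rose by 0.78 ± 0.25 in WT (adjusted p = 0.0275; 0.136 with the slide as a block, 0.155 with normexp, and 0.0518 to 0.0939 without WT denervated 1, WT denervated 2, WT control 2 or WT control 3) and by 1.37 ± 0.25 in KO (adjusted p = 0.00101), where its other probe gave 0.85. Fcgr2b, the inhibitory Fc receptor (chr1:172797532-172797591), was -1.14, -0.74 and -0.68 in WT control, -0.60, -0.32 and -0.29 in WT denervated, -0.42, -0.96 and -1.55 in KO control and 0.31, 0.10 and -0.27 in KO denervated muscle. Its groups did not overlap either. Fcgr2b rose by 1.03 ± 0.27 in KO (adjusted p = 0.0086), and the WT difference was 0.45 ± 0.27 (adjusted p = 0.208). Fcgr3 and the signalling adaptors Fcer1g and Tyrobp did not pass, with differences from 0.05 (Tyrobp, WT) to 0.69 (Fcgr3, KO).

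Of 4 complement genes tested, 0 passed in WT, at the adjusted or at an unadjusted threshold of 0.05 in limma, and 2 rose in KO (medians 0.34 and 0.56). Among all genes 19.2% were higher in WT and 23.4% in KO. C1qa, C1qb and C1qc encode the 3 chains of C1q, which lie side by side on chromosome 4. C1qc (chr4:136161927-136161986) was 1.59, 1.46 and 1.62 in WT control, 2.03, 1.84 and 2.16 in WT denervated, 2.08, 1.69 and 1.12 in KO control and 2.53, 2.23 and 2.00 in KO denervated muscle. The WT groups did not overlap, but KO control 1 was above KO denervated 3. C1qc passed in KO at 0.62 ± 0.23 (adjusted p = 0.0419; 0.0807 with the slide as a block, and 0.37 without KO control 3, adjusted p = 0.161), and in WT the difference was 0.45 ± 0.23 (adjusted p = 0.138, or 0.0477 with the block within each genotype). For C1qa the differences were 0.44 ± 0.26 in WT and 0.55 ± 0.26 in KO (adjusted p = 0.208 and 0.102), and for C1qb 0.23 ± 0.25 and 0.37 ± 0.25. All 6 differences of the C1q chains lay between 0.23 and 0.62. C3, the central complement protein (chr17:56889328-56889387), was 4.75, 4.91 and 4.70 in WT control, 4.54, 5.11 and 4.77 in WT denervated, 4.89, 4.78 and 4.43 in KO control and 5.13, 5.43 and 5.24 in KO denervated muscle. The WT groups overlapped and the KO groups did not. C3 rose by 0.56 ± 0.18 in KO (adjusted p = 0.0233; 0.268 with normexp, and 0.0504 to 0.0919 without KO denervated 2, KO denervated 3 or KO control 3), with 0.02 ± 0.18 in WT (adjusted p = 0.947).

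Of 5 chemokine and chemokine receptor genes, 2 rose in WT and 3 in KO (medians 0.72 and 1.58), where 19.2% and 23.4% of all genes were higher. Ccl8, a monocyte-attracting CC chemokine (chr11:81932801-81932860), was -1.62, -1.19 and -2.14 in WT control, 0.24, 0.89 and 0.26 in WT denervated, -0.85, -2.58 and -3.31 in KO control and 0.99, 1.14 and 0.31 in KO denervated muscle. The groups did not overlap, and the KO control arrays spanned more than 2 log2 units. Ccl8 rose by 2.11 ± 0.52 in WT (4.32-fold, adjusted p = 0.00798) and by 3.06 ± 0.52 in KO (8.34-fold, adjusted p = 0.000675). Ccl7, encoded in the same cluster on chromosome 11 (chr11:81863349-81863408), was -2.41, -3.06 and -3.22 in WT control, -2.42, -2.50 and -2.09 in WT denervated, -3.56, -3.45 and -3.25 in KO control and -1.38, -2.06 and -1.86 in KO denervated muscle. The WT groups overlapped through WT control 1, and the KO groups did not. Ccl7 rose by 1.65 ± 0.24 in KO (adjusted p = 0.000224; 0.161 with normexp), where its other probe gave 1.98, and in WT the difference was 0.56 ± 0.24 (adjusted p = 0.0843). Ccl2, the main ligand of Ccr2 and a neighbour of Ccl7, did not pass, with -0.50 ± 0.32 in WT and 0.37 ± 0.32 in KO (adjusted p = 0.233 and 0.362).

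Ccr2, the receptor of inflammatory monocytes (chr9:123957008-123957067), was -2.57, -2.66 and -2.61 in WT control, -1.30, -1.44 and -1.61 in WT denervated, -0.99, -2.74 and -2.77 in KO control and -1.44, -0.40 and -1.34 in KO denervated muscle. In WT the groups were far apart relative to their spread, and in KO they overlapped through KO control 1 alone. The standard error draws on all 4 groups, with an SD of 1.02 in KO control against 0.047 in WT control and 0.15 in WT denervated muscle. Ccr2 passed narrowly in WT at 1.16 ± 0.42 (adjusted p = 0.0476; 0.0547 with the replicate number as a block, 0.0767 with that block within each genotype, 0.416 with the slide as a block and 0.0749 to 0.112 without any 1 of the 6 WT arrays). In KO the difference was 1.11 ± 0.42 (adjusted p = 0.05, just above the threshold), and 1.70 without KO control 1 (adjusted p = 0.000818). Cx3cl1, the membrane-bound chemokine fractalkine (chr8:97671414-97671473), was -1.12, -1.05 and -0.89 in WT control, -1.11, 0.32 and -0.12 in WT denervated, -0.14, 0.07 and 0.27 in KO control and 1.31, 2.39 and 1.25 in KO denervated muscle. WT denervated 1 lay among the WT control arrays, and the KO groups did not overlap. Cx3cl1 rose by 1.58 ± 0.36 in KO (adjusted p = 0.00422), and in WT the difference was 0.72 ± 0.36 (adjusted p = 0.14), or 1.12 without WT denervated 1 (adjusted p = 0.0205).

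Of 4 class II presentation genes, 1 passed in KO and 0 in WT (0 at an unadjusted p under 0.05 in limma), where H2-Aa, H2-Ab1, H2-Eb1 and Cd74 differed by 0.55 to 0.66. The KO count is near the 23.4% of all genes that were higher. In KO, Cd74 differed by 0.39 and H2-Aa by 0.51, against 0.56 and 0.64 in WT. The other H2-Aa probe gave 0.76 in WT and 1.05 in KO. H2-Ab1, the beta chain of H2-A (chr17:33877309-33877368), was 2.47, 2.81 and 2.70 in WT control, 3.17, 3.20 and 3.59 in WT denervated, 3.08, 3.12 and 1.66 in KO control and 3.76, 3.68 and 3.21 in KO denervated muscle. The groups did not overlap, and KO control 3 was the lowest array of all. H2-Ab1 passed in KO at 0.93 ± 0.34 (adjusted p = 0.042), and its 3 other probes gave 0.75 to 0.98. Without KO control 3 the difference was 0.45 (adjusted p = 0.112), and with normexp the adjusted p was 0.221. In WT the difference was 0.66 ± 0.34 (adjusted p = 0.146, or 0.0499 with the block within each genotype). H2-Eb1, a chain of H2-E, was -0.41, 0.08 and -3.20 in WT control, 0.27, 0.20 and -2.35 in WT denervated, 0.31, 0.51 and -0.89 in KO control and 1.06, 0.87 and 0.53 in KO denervated muscle. WT control 3 and WT denervated 3 were more than 2 log2 units below the other WT arrays of their groups. The differences of H2-Eb1 were 0.55 ± 0.85 in WT and 0.84 ± 0.85 in KO (adjusted p = 0.644 and 0.444). The KO groups did not overlap. With the block within each genotype, chosen after the data were seen, the KO difference had an adjusted p of 0.0223 in limma. That block pairs the KO arrays by number, which the labels do not state. Of the leukocyte genes, Ptprc, the phosphatase CD45 (chr1:139879923-139879982), was -1.51, -1.53 and -1.24 in WT control, -1.01, -0.78 and -1.12 in WT denervated, -1.13, -1.83 and -2.32 in KO control and -0.65, -0.47 and -1.01 in KO denervated muscle. It showed no overlap in either genotype. Ptprc rose by 1.05 ± 0.26 in KO (adjusted p = 0.00717), with 0.46 ± 0.26 in WT (adjusted p = 0.195), and Cd53 and Laptm5 did not pass, with differences of 0.41 to 0.86.

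By limma's adjusted test 0 of the 36 passed between the genotypes in innervated muscle (3 at an unadjusted p under 0.05: Cx3cl1 and Laptm5 higher in KO and Ccl7 lower), with 0.00656% of all genes called, which was Smad4 alone. The difference was above 0 for 19 of 36, with a median of 0.03. That median was -0.19 without KO control 1, 0.32 without KO control 3 and -0.08 without WT control 1, so single arrays turn its direction. The genotypes did not overlap for Cx3cl1, which was 1.09 ± 0.36 higher on the KO arrays (adjusted p = 1), and Ccl7, which was lower at -0.52 ± 0.24, while 4.03% of all genes were apart upwards and 4.49% downwards. In denervated muscle 1 of 36 passed, Cx3cl1, against 0.945% of all genes higher and 1.44% lower. There 31 of 36 genes were above 0 in KO, with a median of 0.31 against -0.03 for all genes. For 12 genes every KO denervated array was above every WT denervated array and for 1, Lgals3, below, against 9.24% and 12.6% of all genes. The median difference between genotypes in denervated muscle was 0.51 within slide 1 and 0.33 within slide 4. In innervated muscle it was 0.05 within slide 2 and -0.58 within slide 3, where KO control 3 lay. These comparisons share arrays with the denervation comparisons and are not independent of them.

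Cx3cl1 was higher in KO than in WT denervated muscle by 1.95 ± 0.36 (3.87-fold, limma, adjusted p = 0.018), and 3 of 3 KO arrays were above all WT arrays. It was 2.42 within slide 1 and 2.29 within slide 4, and in innervated muscle 1.12 within slide 2 and 1.16 within slide 3. Without KO denervated 2, the highest array, its adjusted p in denervated muscle was 0.062, and with normexp it was 0.123. Lgals3 was lower in KO denervated muscle by -1.04 ± 0.30 (adjusted p = 0.11), and without WT denervated 3, the lowest of its group, by -1.43 (adjusted p = 0.0107). Gpnmb was 0.76 ± 0.25 higher (adjusted p = 0.161; 0.0308 with the slide as a block). C3 was 0.46 ± 0.18 higher (adjusted p = 0.230; 0.0428 after quantile normalization). Whether the response to denervation differed between genotypes was tested by the interaction, in which 0 of 36 genes passed in limma's adjusted test (3 at an unadjusted p under 0.05), against 0.197% of all genes called. The interaction was above 0, meaning a larger difference in KO, for 28 of 36 genes, with a median of 0.29 against -0.01 for all genes. Lgals3 had the most negative interaction at -1.40 ± 0.42 (adjusted p = 0.266). Itgam (1.15 ± 0.43, adjusted p = 0.433) and Ccl7 (1.10 ± 0.34, adjusted p = 0.272) had the most positive, and Cx3cl1 gave 0.86 ± 0.51 (adjusted p = 0.634). Leaving out single arrays moved the median interaction between -0.02 and 0.58.

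Other genes of the same pathways, from lists by known role, moved in both directions, in shares that differed between the lists. Of all genes, 19.2% were higher and 20.0% lower in WT, and 23.4% and 23.5% in KO. Of 46 other macrophage and phagocyte genes tested, 10 rose and 4 fell in WT and 19 rose and 4 fell in KO (medians 0.15 and 0.50). The 10 that rose in WT are 21.7%, near the share of all genes, while the 4 that fell are 8.7%. In KO 41.3% rose and 8.7% fell, and the difference was above 0 for 33 of the 46. Of the 46, 39 were detected on every array. Tlr4, the lipopolysaccharide receptor, rose by 2.31 ± 0.21 in WT (adjusted p = 1.22e-05) and by 2.06 in KO, and the protease Ctsl by 1.51 in WT. The inhibitory receptor Sirpa rose by 2.18 in KO. The fatty acid transporter Cd36 and the lipase Lpl, which muscle also expresses, fell, Cd36 by 1.30 in each genotype and Lpl by 1.69 in WT and 2.35 in KO. Spi1, which encodes PU.1, was detected on no array. Between genotypes in denervated muscle, Gas6, a bridging ligand for uptake of dying cells, was 1.31 ± 0.21 higher in KO (adjusted p = 0.00881), and Lpl was lower at -1.11 ± 0.23 (adjusted p = 0.0337). Of 18 other complement genes tested, 1 rose and 3 fell in WT and 5 rose and 2 fell in KO (medians -0.02 and 0.38). C4b, of the classical pathway, rose by 1.17 ± 0.30 in WT (adjusted p = 0.0105) and by 1.74 in KO, and Cfb, of the alternative pathway, by 1.35 ± 0.27 in KO (adjusted p = 0.00174). Clu, an inhibitor of complement lysis, fell by 1.13 in WT and by 1.76 in KO, and C8g, a chain of the lytic complex, by 1.39 and 1.63.

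Beside the counts that follow, 19.2% of all genes were higher and 20.0% lower in WT, and 23.4% and 23.5% in KO. Of 10 other class II pathway genes tested, 1 rose and 3 fell in WT and 2 rose and 3 fell in KO. Lgmn, a lysosomal protease, rose by 1.13 ± 0.13 in WT (adjusted p = 7.85e-05) and by 1.29 in KO. Rfxank, a subunit of the factor that binds class II promoters, fell by 0.96 and 1.23. Ciita, the class II transactivator, differed by 1.30 ± 0.53 in WT and 1.07 in KO (adjusted p = 0.0712 and 0.116). Of 16 MHC class I and peptide-loading genes, 2 rose and 3 fell in WT and 3 rose and 3 fell in KO, near or below those shares. The class I light chain B2m differed by -0.34 (adjusted p = 0.147) and 0.09 (adjusted p = 0.69). Among 17 other chemokines, receptors and macrophage growth factors, 5 rose and 4 fell in WT and 4 rose and 4 fell in KO. The KO counts are near the shares of all genes. Csf1, a ligand of Csf1r, fell by 0.68 ± 0.15 in WT (adjusted p = 0.00484) and differed by -0.16 in KO (adjusted p = 0.427), and the other ligand, Il34, differed by -0.30 and -0.20. The chemokine Cxcl12 fell by 1.31 and 1.44. Its receptor Cxcr4, counted among the 5 in WT, was detected on all 3 WT denervated arrays and on 1 array of each other group. It thus entered the fit only through the group in which it was high, and no test is given. Cxcr4 was -1.97, -1.49 and -1.04 in WT denervated muscle, between -4.61 and -3.43 in WT control, between -4.60 and -3.64 in KO control and between -4.56 and -2.92 in KO denervated muscle. Of 12 inflammatory cytokine and receptor genes tested, 3 rose and 4 fell in WT and 4 rose and 1 fell in KO. Tgfb1 rose by 3.20 and 1.83, and the myokine Il15 fell by 3.42 and 3.33.

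Markers of other cells were measured beside the macrophage genes. For comparison with their counts, 20.0% of all genes were lower and 19.2% higher in WT, and 23.5% and 23.4% in KO. The summed linear level of the 36 genes, in units of each array's 75th percentile, ran from 83.0 to 102 in WT control, 129 to 156 in WT denervated, 67.6 to 134 in KO control and 145 to 183 in KO denervated muscle. Bright probes weigh most in such sums, here Lyz2 and C3 (log2 means of 4.84 and 4.79 in WT control). Neither passed in WT, and C3 passed in KO. Of 11 granulocyte and mast cell markers tested, 0 passed as higher in either genotype, 3 fell in WT and 6 in KO. Only 5 of the 11 were detected on every array. Camp, Ltf, Mpo and Ngp were well above background on no KO denervated array. Those of them that were tested entered the fit only through other groups, so their fall in KO was partly built into the filter. The sum of the 11 markers ran from 16.2 to 36.3 in WT control, 6.88 to 24.9 in WT denervated, 5.31 to 30.3 in KO control and 4.16 to 6.99 in KO denervated muscle. The mast cell genes Mcpt4 and Fcer1a fell in both genotypes, by 0.98 to 1.34, and the neutrophil genes S100a9 and Ltf fell in KO. In each genotype 1 of the 11 markers went the other way, by 2.16 in WT and 2.21 in KO, and did not pass. Its denervated arrays were all above its innervated ones. The neutrophil receptors Csf3r and Cxcr2 were not well above background in any group. Only 6 of 14 T and NK cell markers could be tested, of which 2 rose (the T cell kinase Zap70 and Cd5) and 1 fell (Cd4) in WT, and 1 rose (Zap70) and 1 fell (Cd4) in KO. Zap70 was not well above background in WT control and was at least 11.3-fold higher after denervation there, and it entered the fit only through the denervated groups. Cd4 was well above background on no KO denervated array and entered the fit only through other groups, so its fall in KO was partly built into the filter. The sum of the 6 markers was 3.94 to 4.34, 2.90 to 3.73, 1.84 to 5.53 and 1.48 to 4.22 in the same order of groups. Only 3 of 8 B cell markers could be tested, of which 1 fell in each genotype, and Cd79a, Cd22, Blk and Pax5 were below that mark in every group. Of 3 dendritic cell markers tested, Zbtb46 rose in WT, and in KO Zbtb46 and Batf3 rose and Xcr1 fell. Of 10 endothelial markers, such as Kdr, Tek, Eng and Pecam1, 7 fell in WT and 8 in KO, and their sum was 28.1 to 34.8, 11.8 to 22.0, 34.0 to 36.7 and 17.1 to 21.5. Of 10 Schwann cell markers 7 fell in WT and 8 in KO. All 3 erythrocyte markers tested fell in both. Of 10 fibroblast markers 1 fell in WT and 0 passed in KO, with sums of 210 to 227, 177 to 214, 186 to 333 and 209 to 272. Of 15 muscle fibre markers 3 fell in WT (20.0%, the share of all genes) and 9 in KO. Their medians of -0.09 and -0.82 became 0.16 and -0.07 after quantile normalization. Their sums were 3320 to 4280, 2840 to 4090, 4460 to 4600 and 2350 to 3220. What part these changes have in the levels of the macrophage, complement and antigen presentation genes was not tested.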

How the data were processed

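Gene expression of 12 gastrocnemius samples, 3 per group, was measured on 1-colour Agilent mouse arrays. Per the file headers, the deposited intensity of a spot was background-subtracted and detrended by Agilent Feature Extraction 10.7.3.1, on probes placed on mouse build mm8, while the submitters' processing notes name version 10.5.1.1. The deposited value table holds the authors' processed intensity on a linear scale, made comparable between arrays by a method not given in the sources used here, and served as an alternative. Its direction is fixed by 1 colour, and its correlation with the scanner values was at least 0.9995.

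Control spots were left out of 43379 other spots of 41174 probes, spots flagged as outliers counted as missing, and repeated spots were averaged into 1 value per probe. Log2 intensity minus the array's 75th percentile was analysed. Probes marked well above background on all 3 arrays of a group were kept (22535), and the brightest kept probe stood for its gene. Names came from the files, updated through RefSeq for 24375 probes by accession, 6301 by symbol and 2426 by synonym, with 8072 kept as in the files. Differences were fitted with limma 3.58.1 (R 4.3.3) over all 12 arrays with 4 group means, and p-values were adjusted by Benjamini-Hochberg over 15234 genes per comparison at a threshold of 0.05. A missing value on an array left 234 genes with fewer arrays in their fit. An exact permutation test with 3 arrays on each side has 0.1 as its smallest p and was not used. The script was tested on simulated data, and figures were drawn with matplotlib 3.10.9.

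Same-numbered WT control and WT denervated arrays deviated together (correlations 0.108 to 0.303), and KO pairs did not all do so (0.0137 to 0.175). Arrays of different genotypes reached similar values. WT denervated 2 and KO denervated 2, both on slide 4, gave 0.298, and WT control 3 and KO denervated 2 gave 0.231. The WT pair with 0.303 shared slide 1. The correlations thus do not decide whether the numbers pair the arrays, and the main fit left them unpaired. The number of arrays limits the precision. The p-values weigh a difference against the spread between these arrays, pooled over the 4 groups and drawn by limma towards that of other genes. The genes and the lists of other genes were chosen with earlier results of these data known. Every member is named, with the values on all arrays for those called in a comparison. From each other list up to 4 genes with the smallest adjusted p are named, with Spi1, Csf1, Il34, B2m and Ciita and the undetected markers of other cells. Alternatives were other normalizations, normexp background correction with an offset of 50, filters, probe choices, slide, scan day and replicate blocks, and leaving out each array.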

Additional observations from a re-analysis of the deposited data

How the results depend on the processing

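The 24 alternatives reversed no called difference of these genes. In WT, Cd68, Ccl8, Lgals3, Gpnmb and Trem2 kept their call under every alternative, and in KO, Aif1, Fcgr1, Fcgr2b, Cx3cl1, Ccl8, Ptprc, Lgals3, Gpnmb, Trem2 and Ctss did. The number of genes higher after denervation in WT, 10, was 6 with normexp, 6 with the slide as a block, 9 with the replicate block and 7 to 13 with 1 array left out. In KO, where it was 19, it was 10 with normexp, 19 with the replicate block and 14 to 29 with 1 array left out, and the median difference of 0.89 ran from 0.64 to 1.21. A block within each genotype, chosen after seeing the data, gave 13 in WT and 25 in KO, where Cd14, Cd163, Fcgr3, Tyrobp, C1qa and H2-Eb1 were added (adjusted p 0.0223 to 0.0490). It pairs the KO arrays by number too, although same-numbered KO arrays did not all deviate together. Between genotypes in denervated muscle, 1 gene passed, against 0 with normexp, 2 with quantile normalization, 2 with the authors' values, 2 with the slide and 2 with the scan day as a block, 1 with the replicate block and 0 to 2 with 1 array left out. The replicate block over all arrays changed no other call than that of Ccr2 in WT. Ccr2 lost its call in WT under 17 of 24 alternatives, C1qc in KO under 13 and H2-Ab1 in KO under 11, and the cause was not tested. Dim signals limit Itgax, Itgam and Cd53, which lie near background in innervated muscle, and Msr1, C3ar1, C5ar1 and Cx3cr1, which could not be tested.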
